A study of Mus musculus with 8 samples.

Results

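Most of the genes described here serve the making, transport or loading of the peptides shown by class I molecules on the cell surface. The list holds the inducible catalytic subunits of the proteasome Psmb8, Psmb9 and Psmb10 and the proteasome activator subunits Psme1 and Psme2. It also holds the peptide transporter Tap1 and Tap2, its loading partner Tapbp, the class I light chain B2m, and Ubd, a ubiquitin-like protein. The genes were read in the livers of 8 mice. Of the 10 genes, 9 had a probe set whose annotation gives that gene alone, out of 8251 genes named in this way on the array, and Psme2 was skipped because both of its probe sets also carry another symbol. The probe set of a gene was chosen by its mean intensity over the 8 arrays, the brightest being kept. All 9 lay above the brightness minimum that left 4869 genes for comparison (a mean of 165.2, the median of all values in the table). Ubd lay above it through mice 3, 6 and 8.

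All 8 mice belonged to a single group: female Ames dwarf mice, homozygous for the df allele, given 30% less pelleted food than dwarf females that ate freely, and killed at 24 to 26 months. Liver RNA of each mouse was hybridised to 1 Affymetrix mouse U74Av2 array. The df mutation leaves the pituitary unable to make prolactin, growth hormone or thyrotropin, and every mouse here shares that genotype and that diet. No control diet, other genotype or younger mouse was analysed here, so the measurements are levels in each liver and differences between livers. They are given as descriptions without a test, apart from a check of the members for outlying values. Each mouse was read once, so the reading error of a single value is unknown. The median SD over the 8 mice among the 4869 genes was 0.23 on the log2 scale, and 1 in 10 genes had an SD above 0.50. The median SD holds both reading error and differences between mice, so it serves only as a rough scale. As a check of the tissue label, albumin (Alb) read 29253 ± 4809 (SD, n = 8), and the 8 measured hepatocyte markers all lay above the brightness minimum. For the female label, Xist read 687 ± 421 (SD, n = 8) and differed widely between mice, from 95.8 to 1572.

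The proteasome is the barrel-shaped protease that breaks down ubiquitin-tagged proteins. When cells meet interferon gamma, newly assembled barrels take in Psmb8, Psmb9 and Psmb10 in place of Psmb5, Psmb6 and Psmb7, and the resulting immunoproteasome cuts proteins into peptides that suit class I molecules. The peptides are pumped into the endoplasmic reticulum by Tap1 and Tap2, and Tapbp (tapasin) holds the class I heavy chain and B2m at the transporter until a peptide is bound. Ubd, also called FAT10, is attached to proteins much as ubiquitin is and directs them to the proteasome, and it is known to be induced by interferon gamma and tumour necrosis factor.

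The promoters of 4 members are shown because these genes stand at the extremes of the measurements below: Ubd with the widest spread between livers, Psmb8 with the widest among the subunits, Tap1 with a window that it shares with Psmb9, and B2m with the narrowest spread. Each window runs from 250 bases before to 50 bases after the annotated start, taken from RefSeq on GRCm38.p6. The windows lie at chr17:37193642-37193941 for Ubd, chr17:34197945-34198244 for Psmb8, chr17:34187306-34187605 for Tap1 and chr2:122147437-122147736 for B2m, all on the plus strand. Capitals mark matches on either strand to 1 of 3 motifs: GAAANNGAA (like the interferon response element), TTCNNNGAA (like the gamma activated site) and GGNNTTTCC (like the NF-kB site).
Ubd: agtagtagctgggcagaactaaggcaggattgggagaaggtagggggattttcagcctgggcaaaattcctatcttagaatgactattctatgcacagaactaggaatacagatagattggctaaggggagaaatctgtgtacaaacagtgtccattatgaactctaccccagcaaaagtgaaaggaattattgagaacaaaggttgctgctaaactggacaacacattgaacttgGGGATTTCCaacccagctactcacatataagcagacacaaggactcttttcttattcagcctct
Psmb8: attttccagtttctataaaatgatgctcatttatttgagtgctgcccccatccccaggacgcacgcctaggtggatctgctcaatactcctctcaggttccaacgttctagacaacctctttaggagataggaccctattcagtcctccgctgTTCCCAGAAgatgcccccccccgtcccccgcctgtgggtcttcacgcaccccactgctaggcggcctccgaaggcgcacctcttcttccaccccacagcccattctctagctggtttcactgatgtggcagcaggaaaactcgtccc
Tap1: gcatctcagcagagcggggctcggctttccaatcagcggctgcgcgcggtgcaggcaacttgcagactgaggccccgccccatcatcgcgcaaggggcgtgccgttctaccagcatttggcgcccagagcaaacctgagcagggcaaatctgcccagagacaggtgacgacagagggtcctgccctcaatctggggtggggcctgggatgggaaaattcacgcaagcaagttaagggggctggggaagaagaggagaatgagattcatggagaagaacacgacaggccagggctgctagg
B2m: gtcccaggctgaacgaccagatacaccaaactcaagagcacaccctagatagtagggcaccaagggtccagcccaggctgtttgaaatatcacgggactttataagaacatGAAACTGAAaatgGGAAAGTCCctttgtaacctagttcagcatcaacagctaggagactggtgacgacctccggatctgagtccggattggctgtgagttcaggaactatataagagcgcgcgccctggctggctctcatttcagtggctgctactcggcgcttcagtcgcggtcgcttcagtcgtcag
In the Ubd window the NF-kB like letters GGGATTTCC lie at bases -14 to -6, counted from the start with the base before it as -1. In the Psmb8 window the gamma activated site like letters TTCCCAGAA lie at -97 to -89. The B2m window holds an interferon response element like match, GAAACTGAA, at -139 to -131, and 4 bases on a match to the NF-kB like motif on the other strand, GGAAAGTCC, at -126 to -118. The Tap1 window holds none of the 3 motifs, nor do those of Psmb9, Psmb10, Tapbp and Psme2. The search covered 9 of the 10 genes, Tap2 not being among them. The Psme1 window holds 1 match to the interferon response element like motif on the minus strand, TTCGCTTTC, at bases 11 to 19. Among 32851 promoter windows of the same length, 8.56% held the interferon response element like motif, 8.30% the gamma activated site like motif and 5.82% the NF-kB like motif. A match is a description of letters in the window and was not tested as a site.

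Psmb9, Tap1, Psmb8 and Tap2 are neighbours on chromosome 17 with no other annotated gene between them, within 34292 bases, and Tapbp and Ubd lie on the same chromosome. Psmb9 and Tap1 point away from each other, and their promoter windows overlap over 275 bases with the same sequence. Of the others, Psmb10 is on chromosome 8, Psme1 and Psme2 are on chromosome 14 and B2m is on chromosome 2. Psmb10 and Psme1 had the same 4 highest mice (6, 8, 3 and 2) as Psmb8 and Psmb9, though they lie on other chromosomes.

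The inducible catalytic subunits differed between livers far more than most genes. Psmb8, which carries the chymotrypsin-like activity of the immunoproteasome, read 1403, 2602, 2766, 425, 639, 6130.4, 332 and 4835 in mice 1 to 8. Mice 6 and 8 were highest, mice 4, 5 and 7 lay at 639 and below, and the other 3 lay between. The mean was 2391 ± 2148 (SD, n = 8), the range from mouse 6 to mouse 7 was 18.5-fold, and the SD on the log2 scale was 1.60, rank 24 of 4869 genes from the widest. In bulk liver RNA, more cells of a type and more RNA per cell cannot be told apart, here and in every result that follows.

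Psmb9, the caspase-like site's replacement subunit, read 725, 1315, 1718, 325, 361, 4031, 312 and 2836 in mice 1 to 8. Mouse 6 was again highest and mouse 7 lowest, and mice 4, 5 and 7 lay close together, at 361 and below. Its range was 12.9-fold and its SD 1.46 on the log2 scale (rank 38). Psmb10, which replaces the trypsin-like subunit, read 1088, 2001, 2187, 700, 1176, 3368, 789 and 3019 in the same order of mice. Psmb10 had the same 4 highest mice as Psmb8 and Psmb9 but a smaller range, 4.81-fold from mouse 6 to mouse 4, with an SD of 0.87 (rank 158). Of the 200 genes nearest in mean log2 intensity to each, 2 had a wider SD than Psmb8, 1 than Psmb9 and 5 than Psmb10.

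**Figure D1:**
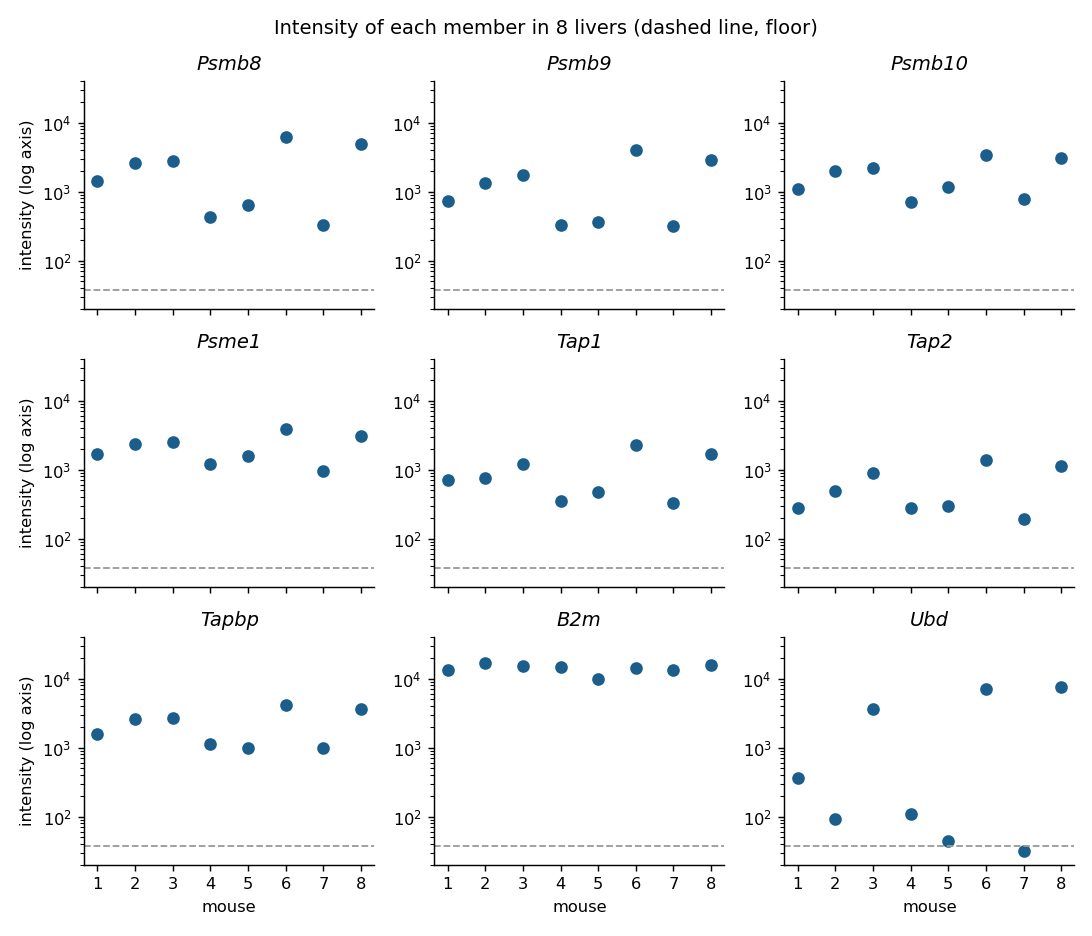
Deposited intensity (vertical, log axis) of the 9 measured members in each of the 8 mice (horizontal), 1 point per array, with the floor of 37.2 as a dashed line. Mice 3, 6 and 8 are the 3 highest in 8 of the 9 panels, B2m being the exception, and Ubd in mouse 7 lies under the floor at 32.1.

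The subunits that these 3 replace moved little over the same livers. Psmb5 averaged 2428 ± 155 and ranged 1.23-fold, Psmb6 averaged 1855 ± 309 and ranged 1.78-fold, and Psmb7 averaged 1661 ± 111 and ranged 1.22-fold (SD, n = 8 each). The SDs on the log2 scale were 1.60 for Psmb8 and 0.09 for Psmb5, 1.46 for Psmb9 and 0.25 for Psmb6, and 0.87 for Psmb10 and 0.10 for Psmb7. The ratio of inducible to constitutive subunit differed between livers by slightly more than the inducible subunit alone: 18.9-fold for Psmb8 over Psmb5, 13.8-fold for Psmb9 over Psmb6 and 5.15-fold for Psmb10 over Psmb7. On the log2 scale and relative to its mean over the mice, the Psmb8 to Psmb5 ratio came to 1.97, 1.54 and 1.03 in mice 6, 8 and 3, and to -1.25, -1.75 and -2.26 in mice 5, 4 and 7. Only changes in such a ratio can be read, since the brightness of different probe sets is not on a common scale. The probe sets of Psmb5 and Psmb7 can also catch related transcripts.

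**Figure D2:**
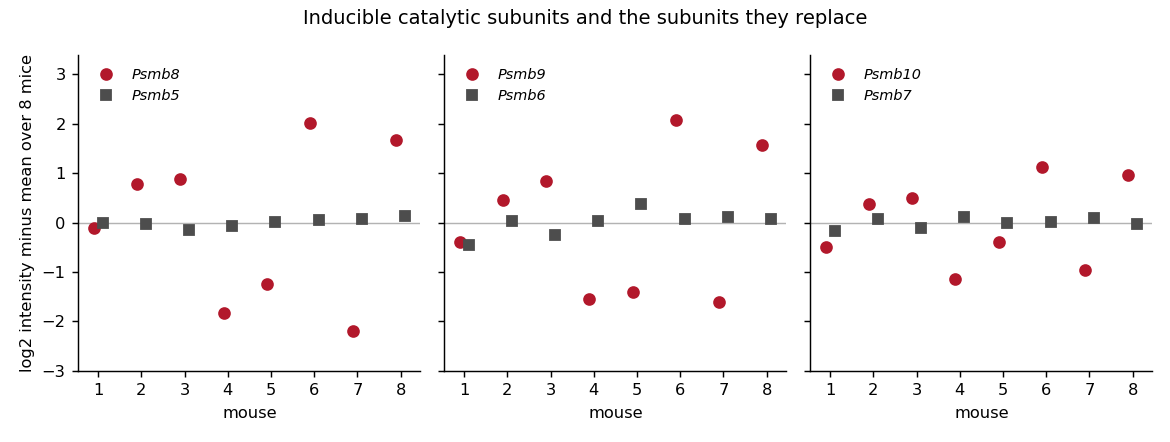
Deviation of log2 intensity from the mean of 8 mice (vertical) by mouse (horizontal) for each inducible catalytic subunit (red circles) and the subunit it replaces (grey squares). Psmb8 spans 4.21 log2 units between mouse 6 and mouse 7, while Psmb5, Psmb6 and Psmb7 stay nearer to 0.

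Most of the rest of the proteasome also ranged less than 2-fold, as did most genes, 23.4% of the 4869 ranging at least 2-fold. None of the 11 other subunits of the core particle ranged 2-fold, with a median SD of 0.18 on the log2 scale against 0.10 for the 3 replaced subunits, and the brightest of them, Psma3, ranged 1.36-fold, Psmb4 1.39-fold and Psma6 1.59-fold. Of 18 bright subunits of the regulatory cap, 1 (Psmd5) ranged over 2-fold, by 2.76-fold, more than Psmb6, and 0 ranged 4-fold, with a median SD of 0.19. Its brightest, Psmc6, ranged 1.54-fold, Psmd11 1.31-fold and Psmd6 1.23-fold. The other activators and assembly factors also stayed under 2-fold in all 5 cases: Pomp, which helps assemble new barrels, ranged 1.86-fold, and the activators Psme3 and Psme4 ranged 1.25-fold and 1.20-fold.

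Psme1, a subunit of the interferon-inducible activator ring that caps the barrel, lay between these classes. It read 1674, 2318, 2551, 1185, 1577, 3813, 964 and 3032 in mice 1 to 8, a mean of 2139 ± 973 (SD, n = 8). Its order of mice from high to low (6, 8, 3, 2, 1, 5, 4, 7) was identical to that of Psmb8, Psmb9 and Tap1. Its range was 3.96-fold and its SD 0.68 (rank 266), with 6 of the 200 genes nearest in brightness wider. Its partner Psme2 was not analysed here.

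The peptide transporter and tapasin followed the catalytic subunits. Tap1, which forms the transporter with Tap2, read 702, 747, 1185, 350, 474, 2263, 323 and 1673 in mice 1 to 8, and Tap2 read 275, 494, 879, 276, 298, 1367, 194 and 1124. Both were highest in mouse 6 and lowest in mouse 7, with nearly equal ranges, 7.001-fold for Tap1 and 7.06-fold for Tap2, and SDs of 1.03 (rank 107) and 1.07 (rank 94). They differed in mouse 1, which stood above mice 4 and 5 for Tap1 and below them for Tap2, where these 3 mice lay between 275 and 298. Tapbp, the bridge between transporter and class I molecule, read 1576, 2601, 2715, 1137, 985, 4173, 993 and 3631. Tapbp was highest in mouse 6 and lowest in mouse 5, with mice 5 and 7 too close to order, a range of 4.24-fold and an SD of 0.85 (rank 169).

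Tapbp has other probe sets, which bear on the same transcript with other probes. A second bright one ranged 4.32-fold (mouse 6 at 1388, mouse 5 at 321), and its correlation with the brightest was r = 0.863 (Spearman's rho 0.857, n = 8 mice). The other bright one, a family probe set, ranged 2.08-fold, with mouse 2 at 1148 and mouse 5 at 553 (r = 0.7497, rho 0.762). Both gave mouse 5 as the lowest. On the brightest probe set mice 5 and 7 were too close to order. Mouse 7 was its lowest once the array medians were made equal, and also with quantile normalization. Of the other 2 bright probe sets, only the first gave mouse 6 as the highest. The second probe sets of Psme1 and Tap1 lay below the brightness minimum, with means of 33.5 and 90.2, and did not follow the bright ones (r = -0.453 and -0.146). When all probe sets of the same gene were averaged, the range of Psme1 was 1.79-fold and that of Tap1 2.78-fold.

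B2m, the light chain that every class I molecule carries, stood apart from the other members. Its intensities in mice 1 to 8 were 13549.5, 16729, 15044, 14661, 9996, 14050.4, 13262 and 15717. Mouse 2 was highest and mouse 5 lowest, and mouse 6, the highest for 7 other members, lay in the middle. The mean was 14126 ± 2021 (SD, n = 8), the range 1.67-fold and the SD 0.22 on the log2 scale, close to the median gene, with 87 of the 200 genes nearest in brightness wider. Without mouse 5 the SD was 0.12. B2m was also the brightest member, rank 54 of 4869 genes by mean intensity. The part of this brightness in its small range was not tested. The array of mouse 5 also had the lowest median intensity of the 8 (145.6, against 157.5 to 177 in the others). The part of that array in the low B2m value was not tested, and mouse 5 was still the lowest for B2m once the array medians were made equal, with a range of 1.45-fold.

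The heavy chains that pair with B2m were measured mostly by probe sets shared within the family, so single names are uncertain. Of 8 bright ones, 3 ranged at least 2-fold and 1 at least 4-fold (H2-M3, 4.34-fold). Over all 4869 genes the shares were 23.4% and 5.46%. With so few heavy chains and loading factors, no difference from other genes is read from the counts in this paragraph. The range of H2-K1 was 1.98-fold, with mouse 6 at 20812 and mouse 4 at 10495, and that of H2-D1 1.73-fold, with mouse 6 at 17173 and mouse 7 at 9943. H2-Q10, a class I gene secreted by the liver, ranged 1.46-fold and was lowest in mouse 6. H2-Q4 ranged 3.42-fold, with mouse 6 at 9971 and mouse 8 at 8860. With the mean standardised log2 intensity of the 9 members, the 8 bright heavy chains had a median r of 0.811. The median over the 4869 genes was -0.057, and H2-Q10 had r = -0.240. Among the 5 other bright factors of peptide loading and trimming, 1 ranged over 2-fold (Pdia3, 2.39-fold, highest in mouse 8), while Sec61a1 ranged 1.14-fold and Bcap31 1.41-fold.

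Ubd had the widest SD of all 4869 genes. Mice 1 to 8 had Ubd intensities of 367, 91.8, 3662, 111, 43.7, 7065, 32.1 and 7460.4. Its values fell into separate sets, mice 3, 6 and 8 at 3662 and above and the other 5 mice at 367 and below, with no mouse between. The reading of mouse 7 lay under the floor of 37.2, so the range, 200.5-fold with mouse 7 at the floor, and the log2 SD of 3.27 depend on the floor. With the floor raised to the median of all values, which also takes in mice 2, 4 and 5, the range was 45.2-fold and the SD 2.58. The mean over the 8 mice, 2354 ± 3269 (SD), describes no single mouse. Of the other genes for ubiquitin-like proteins and their enzymes, 5 of 8 bright ones ranged at least 2-fold and 3 at least 4-fold. Among the 4869 genes, 23.4% and 5.46% did so. Nedd8, the brightest of them, ranged 1.46-fold, and Ube2l6, the conjugating enzyme for Isg15, 3.23-fold. Isg15, another interferon-induced ubiquitin-like protein, ranged 5.38-fold and Usp18, which removes it, 5.37-fold, both highest in mouse 6. Uba7, the activating enzyme for Isg15, ranged 3.95-fold, whereas Ube2z, a conjugating enzyme used for Ubd in human cells, ranged 1.43-fold. Urm1, a ubiquitin-like protein of tRNA sulfur transfer, ranged 7.69-fold but was lowest in mouse 5 and highest in mouse 2, at dim readings of 26.6 to 286.

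**Figure D3:**
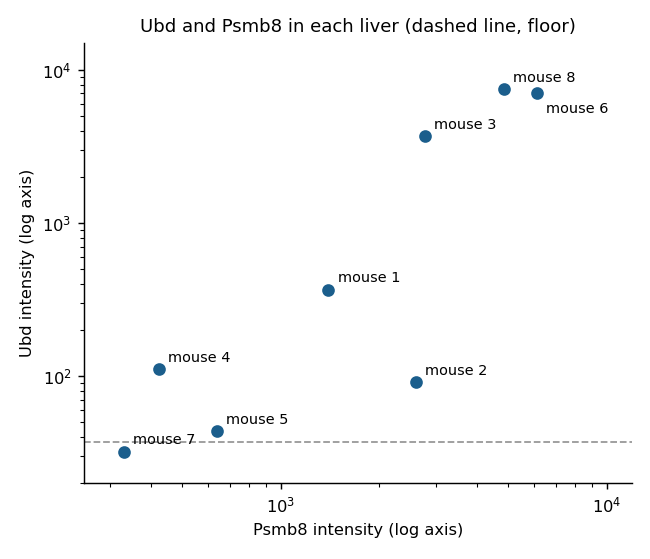
Ubd intensity (vertical, log axis) against Psmb8 intensity (horizontal, log axis), 1 point per mouse, with the floor of 37.2 dashed. Mice 3 and 2 have nearly the same Psmb8 reading (2766 and 2602) and Ubd readings of 3662 and 91.8.

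Ubd and the proteasome subunits ordered the mice alike at the top but not in detail, and mice 3 and 2 showed it best. Between mouse 3 and mouse 2 the Ubd reading differed 39.9-fold (3662 against 91.8), while the other 8 members differed by 0.899-fold (B2m) to 1.78-fold (Tap2), with Psmb8 at 1.06-fold and Psmb9 at 1.31-fold. The Ubd difference, 5.32 on the log2 scale, was the largest of 4869 genes between these 2 livers, and 16 genes differed at least 4-fold upward in mouse 3. Mouse 2 stood above mouse 7 by 7.84-fold for Psmb8 (2602 against 332), by 4.22-fold for Psmb9 and by at least 2.47-fold for Ubd. The Ubd value is a lower bound between dim readings, because mouse 7 lay under the floor. Mouse 1 had more Ubd than mouse 2 (367 and 91.8) and less Psmb8 (1403 and 2602). Mice 3 and 2 were chosen for this comparison after their values were seen, and each is a single array. The summed macrophage markers were 10590.2 in mouse 3 and 11806 in mouse 2, but single markers went both ways: Lyz2 (lysozyme) read 1091 in mouse 3 and 398 in mouse 2, while Cd5l read 569 and 1083 and the Kupffer cell lectin Clec4f 1013 and 1362. Ccr2, Itgax and Cd74 ranked among the genes most like Ubd over these same mice, so the ranking itself favours a higher reading in mouse 3. They read 372, 465 and 11573 in mouse 3, against 82.1, 247 and 3971 in mouse 2. The summed T and NK cell markers were 1851 in mouse 3 and 1051 in mouse 2. In that sum Ccl5 (534 and 30) and Ltb (426 and 120) were far higher in mouse 3. The dim markers Gzmb (81.1 and 135) and Il2rb (103 and 158) were lower there. Ltb also ranked among the genes most like Ubd, so the sum is favoured in the same way. The part of such cells in the Ubd difference was not tested.

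Set against the whole array, the members as a list varied widely. At least a 4-fold range over the 8 mice was seen for 7 of the 9 members, against 266 of 4869 genes (5.46%), and at least a 2-fold range for 8 of the 9, against 1137 genes (23.4%). The median SD of the members was 1.03 on the log2 scale, against 0.23 over the 4869 genes. Tapbp lay just inside the 4-fold limit at 4.24-fold and Psme1 just outside at 3.96-fold. The members were picked with values of these mice known, so these counts describe the list and do not test it. Without mice 6 and 8, the 2 highest livers for 8 members, 4 of the 9 still ranged at least 4-fold (Psmb8, Psmb9, Tap2 and Ubd), against 3.06% of genes, and 8 at least 2-fold, against 15.3%.

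**Figure D4:**
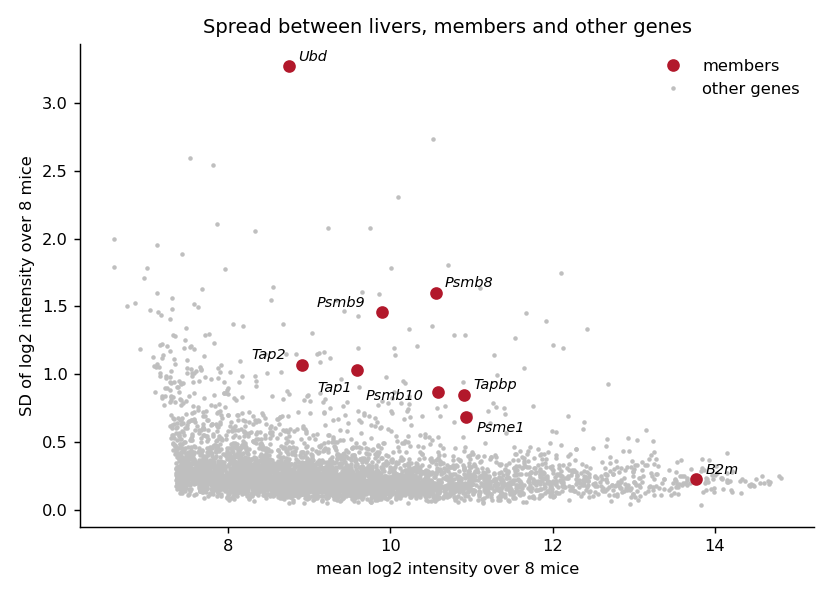
SD of log2 intensity over 8 mice (vertical) against mean log2 intensity (horizontal) for 4869 genes, members in red and other genes in grey. Ubd has the highest SD of all (3.27), Psmb8 and Psmb9 lie at 1.60 and 1.46, and B2m lies within the grey band at 0.22.

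The members other than B2m and Ubd varied closely together from liver to liver. Across the 21 pairs that leave out B2m and Ubd, Pearson's r over the 8 mice ran from 0.931 to 0.992 with a median of 0.966, and across the 7 pairs with B2m from 0.379 to 0.622 with a median of 0.437. With the mean standardised profile of the other 8 members, Psmb9 had r = 0.994 (rho 0.976), Tapbp 0.992 (0.976), Psmb8 0.977 (0.976) and Tap1 0.968 (0.976). The values were 0.961 for Tap2 (rho 0.905), 0.957 for Psme1 (0.976) and 0.949 for Psmb10 (0.881), against 0.469 for B2m (0.524). With the 2 mice left out that lay farthest from the profile's median, r was 0.994 for Psmb9, 0.988 for Tapbp, 0.954 for Psmb8, 0.950 for Tap1, 0.928 for Tap2, 0.914 for Psme1, 0.912 for Psmb10 and 0.497 for B2m. These correlations over 8 mice are descriptions: the points share the arrays and, for the neighbours on chromosome 17, the locus. No r is quoted for Ubd, whose values fall into separate sets, although Ubd enters the profile used for the others.

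By mouse, the same livers stood high for nearly every member. Mice 3, 6 and 8 lay above the member's own mean log2 intensity for 9 of 9 members, and they were the 3 highest mice for 8 of 9. Mouse 7 was among the 3 lowest for all 9 members, and mice 4 and 5 for 7 each. Mouse 2 was above the mean for 7 members and mouse 1 for 0. The mean standardised log2 intensity of the 9 members was 1.21 for mouse 6, 1.06 for mouse 8, 0.63 for mouse 3 and 0.29 for mouse 2. It was below 0 for the other livers, at -0.30 (mouse 1), -0.85 (mouse 4), -0.92 (mouse 5) and -1.12 (mouse 7). Mice 4, 5 and 7 differ little on that scale, and their order changed between members.

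The genes most alike to this common profile, out of 4860 others, included 4 of the 7 bright GTPases induced by interferon gamma among the first 8. Igtp, Gbp2, Gbp3 and Gbp7, which act against intracellular microbes, had r = 0.993, 0.991, 0.988 and 0.983 over the 8 mice (rho 0.976, 0.929, 1 and 1). Ly6e, an interferon-induced surface protein read by a family probe set, had r = 0.989, Mpeg1, a macrophage perforin, 0.984, and Rmdn3 and Cxcl1, a chemokine, both 0.979. These genes ranged from 2.18-fold (Rmdn3) to 39.8-fold (Gbp3), so likeness of pattern did not mean likeness of size. In all, 95 of 4860 genes had r of at least 0.9 and 48 had r of at most -0.9. The most opposed were Polg2 (r = -0.989), Car14 (-0.966), Slc35a1 (-0.964), Naa60 (-0.962) and 4931406C07Rik (-0.957), whose ranges were at most 1.79-fold. Ubd ran most alike with the chemokine receptor Ccr2, the integrin Itgax, the NF-kB inhibitor Nfkbia, the class II invariant chain Cd74 and the lymphotoxin gene Ltb, in a ranking by r that the gap between its sets of mice enters.

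The inducers and mediators known to act on the members were described from a list of 30 interferon and NF-kB genes, of which 22 were bright. Of these, 13 ranged at least 2-fold and 5 at least 4-fold, against 23.4% and 5.46% of the 4869 genes. The 5 were Irf7 (7.37-fold), Socs1 (6.66-fold), Irf1 (5.76-fold), Ifngr2 (4.40-fold) and Irf8 (4.19-fold). Irf1, a transcription factor known from human cells to act at the shared promoter of Psmb9 and Tap1, read 3402 in mouse 6 and 1635 in mouse 8, against 591 to 1224 in the other 6 mice. All 5 were highest in mouse 6, as 7 of the members were. Ifng itself, the interferon gamma gene, lay below the brightness minimum, at 53.6 in mouse 6 and at 1.6 to 7.4, under the floor, in the other 7 mice. Tnf was also dim, at 235 in mouse 6 and 26.5 to 85.7 in the others. The brightest of the list, Rela and Nfkbia, subunit and inhibitor of NF-kB, ranged 1.85-fold and 1.60-fold. All 7 bright GTPases induced by interferon gamma and all 7 bright class II genes ranged at least 4-fold, against 5.46% of all bright genes. Their median SDs were 1.75 and 1.43, against 1.03 for the members. The brightest of these were Iigp1 (18.1-fold) among the GTPases, and Cd74 (10.6-fold), H2-Aa (26.3-fold) and the protease Ctss (11.3-fold) among the class II genes, all highest in mouse 6.

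Most macrophage markers were highest in the livers where most members were highest, mice 6 and 8, while T and NK cell markers differed among themselves. Sums over markers add probe sets that are not on a common scale, so the brightest weigh most. Summed over the 13 measured macrophage markers, mice 6 and 8 had intensities of 34073 and 21084. The other 6 mice had 5732 (mouse 4) to 11806 (mouse 2), so the sum ranged 5.94-fold over the livers. The median r of the 12 bright markers with the members' common profile was 0.850, against -0.057 over the 4869 genes. The brightest 3, Mpeg1, C1qc and Lyz2, ranged 10.1-fold, 5.60-fold and 17.6-fold, all highest in mouse 6. The Kupffer cell lectin Clec4f differed: it was highest in mouse 2 (1362), read 747 in mouse 8 and had r = 0.244 with that profile. Mouse 3, high for the members, had a macrophage sum of 10590.2, below that of mouse 2. The summed T and NK cell markers were 4004 and 3563 in mice 6 and 8, against 594.5 to 1851 in the others, though only 3 of 15 were bright. Of these, Ccl5 (2069 and 1685 in mice 6 and 8) and Ltb (650.5 and 824) made up most of both sums, whereas Cd4 read 235 in mouse 6 and 259 in mouse 8, below mice 1, 2, 3 and 5 (283 to 345). Among the dim markers, Gzmb (300 and 179), Klrd1 (150 and 125) and Thy1 (141 and 69.8) were also highest in mice 6 and 8. Cd3e, Il2rb and Cd28, dim as well, were highest in mice 1, 2 and 7. Cd3d, Cd8a, Cd8b1 and Cd2 were at or under the floor in every mouse. The neutrophil and monocyte sum ranged 3.17-fold, between 3852 (mouse 6) and 1216 (mouse 7). The sums for B and plasma cells (1.32-fold), dendritic cells (1.51-fold), stellate cells (1.36-fold) and cholangiocytes (1.95-fold, Krt19 and Krt7 at the floor throughout) ranged less, and the endothelial sum (2.08-fold) was lowest in mouse 8. Some single markers ranged more than these sums. At least 2-fold ranges were seen for 3 of 6 bright stellate and 2 of 4 bright dendritic markers, against 23.4% of bright genes. Col1a1 (3.08-fold) and Col3a1 (4.23-fold) were highest in mouse 6. Dcn and Col1a2, which weigh most in the stellate sum, ranged 1.66-fold and 1.33-fold. Hepatocyte markers summed to 111279 in mouse 6, the lowest, and 121506 in mouse 8, against 112974 to 164222 in the others. The part of these cells in the members' levels was not tested.

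**Figure D5:**
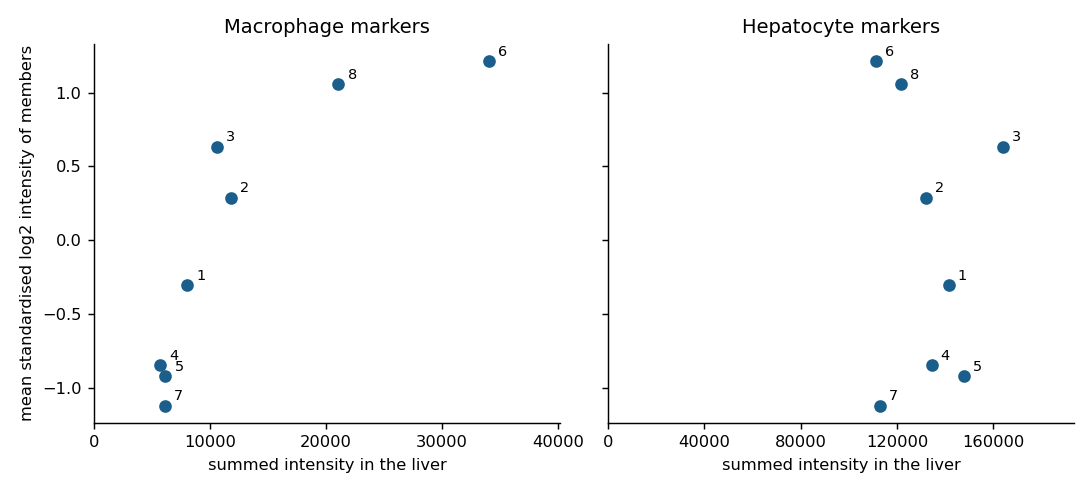
Mean standardised log2 intensity of the 9 members (vertical) against the summed intensity of macrophage markers (left, horizontal) and of hepatocyte markers (right, horizontal), 1 numbered point per mouse. Mice 6 and 8 have the highest member profile (1.21 and 1.06) and the highest macrophage sums (34073 and 21084), while mouse 3 has a high profile (0.63) at a macrophage sum of 10590.2.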

How the data were processed

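The authors deposited 1 linear intensity per probe set and array, used here as deposited. The table holds 12488 probe sets, 66 of them controls, which were left out. The trimmed mean of each array (without the lowest and highest 2% of values) was about 500.4, so no further scaling was applied. Of the software that made the intensities, the sources used here give no name. A sample was found for all 8 columns, with 0 left over. Mice carry the numbers of their titles.

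Values under 37.2, the lower quartile of the table, were set to that floor before taking log2. Bright genes had a mean of at least 165.2. A range is the highest over the lowest intensity after the floor. With 1 group there was no contrast, and no test was made beyond a check of the members for outlying values by Dixon's ratio. The members and gene lists were chosen with earlier results of these data known. The rule for named genes took all members, the brightest 3 of each list, genes with a range of at least 4-fold in 5 pathway lists, the 8 genes most alike and the 5 most opposed to the members, and the 5 most like Ubd. Marker lists other than those of macrophages and of T and NK cells are described by their sums and by few of their genes. Psmd5, Ube2z, Ifng, Tnf, Clec4f, Cd5l, Col1a1, Col3a1, Gzmb, Il2rb, Klrd1, Thy1, Cd3e, Cd28 and H2-Q4 were named after their values were seen. Python 3.11.15, numpy 2.4.6, pandas 2.3.3 and scipy 1.17.1 were used, and the spread calculation was tested on simulated data. Protein sequences were planned but not used here. Alternatives were the scaling, floor, filter, probe set rule and mice included. Arrays' number limits the precision.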

Additional observations from a re-analysis of the deposited data

Results flagged for a closer look

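B2m in mouse 5 stood away from the other livers. It read 9996, against 13262 in the next lowest (mouse 7) and 16729 in the highest (mouse 2), and the gap between the lowest and the next was 0.549 of the whole range on the log2 scale, above the limit for 8 values. Chance gives such a gap in about 1 in 20 groups, and 9 members were looked at. The array of mouse 5 had the lowest median intensity, 145.6, and the part of this in the B2m value was not tested.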

How the results depend on the processing

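The count of members with a range of at least 4-fold was 7 and lay between 6 and 7 when each mouse was left out in turn, being 6 without mouse 6. It was 6 with arrays scaled to a common median (Tapbp at 3.998-fold), 8 with quantile normalization (Psme1 at 4.16-fold), 5 with the mean of all probe sets and 6 without Ubd. The count at 2-fold was 8 without each mouse in turn and 7 to 9 otherwise. The median SD, 1.03, lay between 0.883 and 1.11 without each mouse, and the mean correlation, 0.906 with Ubd included and 0.908 without it, between 0.890 and 0.922. Without mice 6 and 8, chosen after seeing the data, the 4-fold count was 4 and the median SD 0.72. Of 126 SDs of single members under the alternatives, 119 stayed within the expected error of an SD and 7 did not: with the mean of all probe sets Psme1 (0.31), Tap1 (0.53) and Tapbp (0.59), without mice 6 and 8 Tap1 (0.72) and Tap2 (0.78), and B2m with quantile normalization (0.31) and without mouse 5 (0.12). The cause was not tested. No paired analysis was possible because there is 1 group. With 1 array a mouse, differences near the median SD of 0.23 cannot be told from reading error, and readings near the floor have no order.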

Other observations

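Between mice 3 and 2, the 9 genes with the largest differences in favour of mouse 3 after Ubd included secreted proteins and chemokines, named after their values were seen. Saa3, a serum amyloid, read 6604 in mouse 3 and 388.5 in mouse 2, and Lcn2, which binds bacterial iron carriers, read 2451 in mouse 3 and 362 in mouse 2. Ccl2, a chemokine for monocytes, read 756 in mouse 3 and 50.9 in mouse 2. Ccl5 read 534 in mouse 3 and Cxcl10 read 321 there, and both lay under the floor in mouse 2. Tff3, a secreted trefoil protein, read 913 in mouse 3 and 59.5 in mouse 2. Each difference rests on 2 arrays.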
